A study of Mus musculus with 6 samples.

Results

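Hedgehog signalling was followed here through 9 genes, Gli1, Gli2, Gli3, Ptch1, Hhip, Smo, Gas1, Boc and Cdon, chosen by symbol as known components of the pathway and found as 9 of the 53762 gene rows in each count file. They were read in 6 RNA-seq libraries of immortalized mouse embryonic fibroblasts (MEFs), 3 from control cells (WT) and 3 from PME-1 knockout cells (KO), all collected 24 hours after seeding in high glucose medium with serum. PME-1, encoded by Ppme1, is the demethylase that acts on the catalytic subunit of the phosphatase PP2A. The titles name all 3 KO libraries PME-1, while the genotype cells of KO 2 and KO 3 carry other numbers after PME. The labels do not say how the knockout was made, whether each group is 1 line or clone, or whether the replicates are separate cultures. The p-values therefore measure the spread between these samples only, which may be technical.

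Hedgehog proteins are secreted signals that pattern the embryo, and mesenchymal cells such as fibroblasts are among their main responders. A ligand binds the receptor PTCH1 together with the co-receptors GAS1, BOC and CDON, which releases the membrane protein SMO to act in the primary cilium. SMO then turns GLI factors from repressors into activators. GLI3 acts mainly as the repressor, GLI2 as the main activator, and Gli1 is itself switched on by active GLI factors, as are Ptch1 and Hhip, whose products restrain the signal.

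Levels are in CPM, read counts scaled to the effective size of each library, given as mean ± SD with n = 3 per group. Log2 fold changes set KO over WT and are followed by their standard error (SE) and a Benjamini-Hochberg adjusted p from edgeR's quasi-likelihood test over 15223 tested genes, with 0.05 as the threshold. Total counts were 34450993 to 44116310 per library, so that 3 counts stand for 0.0689 to 0.0881 CPM. Ppme1 was at 78.4, 80.7 and 86.6 CPM in WT against 18.2, 14.9 and 18.9 in KO, a 4.72-fold fall (log2 fold change -2.24, SE 0.13, adjusted p = 0.000563) that left reads of the gene in every KO library. Xist was at 431 ± 60.2 CPM in WT against 0.229 ± 0.0998 in KO, while Ddx3y on the Y chromosome had 0 counts in each WT library and 2268, 3061 and 1988 counts in KO, so sex and genotype cannot be told apart in any value below. WT 1 and KO 1 differed most from the other libraries of their groups. On the second principal component, with 27.5% of the variance, WT 1 (60.9), KO 2 (27.8) and KO 3 (28.7) lay on one side and WT 2 (-32.1), WT 3 (-25.7) and KO 1 (-59.4) on the other. Summed fibroblast markers were high in every library, at 16900 to 23100 CPM in WT and 13900 to 16300 CPM in KO. Of 12 fibroblast markers 3 fell and 0 rose, where 3.86% of all tested genes were lower and 3.55% higher. The 3 were Col1a1 (1.97-fold, adjusted p = 0.0209), Pdgfrb (2.41-fold, adjusted p = 0.0233) and S100a4 (2.88-fold, adjusted p = 0.0425). Lum, another fibroblast marker, was near the floor at 0.238 ± 0.302 and 1.04 ± 1.37 CPM and was not called. Dcn (6.56 ± 4.83 and 30.3 ± 28.6 CPM, adjusted p = 0.225) and Thy1 (2.31 ± 1.22 and 6.52 ± 2.52 CPM, adjusted p = 0.134) had higher KO values without overlap. Col1a2 (3900 ± 977 and 2400 ± 154 CPM, adjusted p = 0.0986) had lower KO values without overlap. Dcn, Thy1 and Col1a2 were not called. Of the 12 markers 4 had log2 fold changes above 0 and 8 below. Of 8 epithelial markers Krt5, Krt14 and Esrp1 had 0 counts everywhere. The summed level of the 8 was 8.24 to 31.8 CPM in WT and 126 to 144 CPM in KO. Krt18 (1.39 ± 0.369 and 75.5 ± 28.3 CPM, adjusted p = 0.000753) and Krt8 (0.229 ± 0.0383 and 3.44 ± 2.06 CPM, adjusted p = 0.0109) were called higher. Krt8 had 9, 8 and 11 reads in WT and passed the filter for testing only through the KO libraries. Krt19, also a large part of these sums, overlapped between groups (14.3 ± 13.2 and 53.3 ± 20.9 CPM) and was not called (adjusted p = 0.154). Epcam (0.641 ± 0.498 and 0.675 ± 0.356 CPM) and Cdh1 (0.267 ± 0.163 and 0.103 ± 0.179 CPM) were not called either. Neural and glial markers summed to 133 to 249 CPM in WT and 211 to 474 CPM in KO, with Sox10 and Rbfox3 at 0. Among them Sox2 rose from 2.03 ± 0.237 to 14.1 ± 1.87 CPM (adjusted p = 0.00134) and Map2 fell from 23.0 ± 1.58 to 13.3 ± 1.19 CPM (adjusted p = 0.0209). Most of the neural and glial sum was Nes, at 214, 92.2 and 98.9 CPM in WT against 174, 425 and 437 in KO. Its groups overlapped and it was not called (adjusted p = 0.141). The endothelial, blood and muscle markers each summed to at most 4.94 CPM in any library, with Tek among them called higher (0.192 ± 0.0746 and 1.54 ± 0.686 CPM, adjusted p = 0.0241). Tek had 10, 6 and 7 reads in WT and likewise passed the filter only through the KO libraries. The part of these markers in the results was not tested, and in bulk RNA fewer cells of a type and less RNA per cell cannot be told apart.

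Gli1 was the only member past the threshold, and it fell to about the same low level in all 3 KO libraries. The other 8 members did not pass, Smo missing the threshold narrowly (adjusted p = 0.0523). That makes 1 of 9 members lower and 0 higher, where 7.40% of all tested genes passed in either direction, 3.55% higher and 3.86% lower, so the count itself is near the background. The median log2 fold change of the members was 0.16, against 0.01 for all tested genes, and 5 members lay above and 4 below 0. At an unadjusted p under 0.05 2 members were higher and 3 lower, where 1623 and 1755 of all 15223 tested genes were. WT and KO values did not overlap for Gli1, Smo, Ptch1, Boc and Hhip, 5 of 9 members, where this held for 30.0% of all tested genes.

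**Figure D1:**
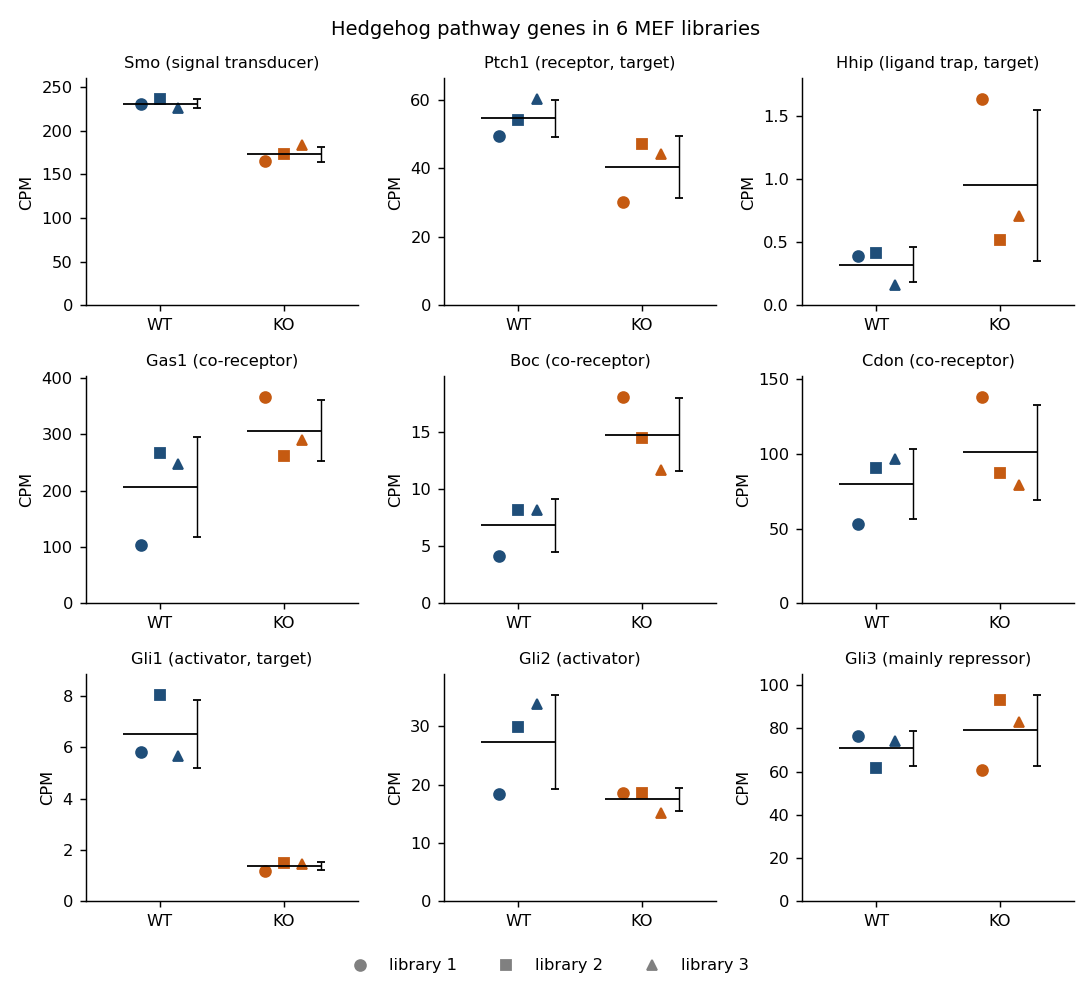
Level of each of the 9 genes in CPM (vertical axes, linear, starting at 0) in the WT and KO libraries, with library numbers as symbols, the group mean as a line and the SD as a bar. Gli1 sits at 5.67 to 8.04 CPM in WT and 1.19 to 1.5 CPM in KO, and Smo, Ptch1, Boc and Hhip also separate the groups, while Gas1, Cdon, Gli2 and Gli3 overlap.

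Among the transcription factors, Gli1 (ENSMUSG00000025407.7, chromosome 10 from 127329882 to 127341974, minus strand, GENCODE M21 on GRCm38, as for all positions given here) was at 5.83, 8.04 and 5.67 CPM in WT libraries 1 to 3 and at 1.19, 1.5 and 1.44 CPM in KO libraries 1 to 3. These are 210, 348 and 247 reads against 46, 64 and 49. Every WT library was well above every KO library. WT 1 lay between the other WT libraries, and KO 1 was the lowest of the 6. The level went from 6.51 ± 1.33 to 1.38 ± 0.165 CPM, a 4.72-fold fall (log2 fold change -2.24, SE 0.27, adjusted p = 0.00553). Leaving out each library in turn kept the call, with adjusted p from 0.0117 to 0.0358, and the log2 fold change without WT 1 and KO 1 was -2.22. Reads of the gene overlap Arhgap9 on the opposite strand by a short stretch at its end, and Arhgap9 had at most 17 counts in any library. An antisense gene, Gm47200 (127332391 to 127370406), lies over most of Gli1 on the opposite strand and had 0 counts in every library.

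Gli2, the main activator (chromosome 1 from 118834132 to 119053619, minus strand), was at 18.3, 29.9 and 33.8 CPM in WT against 18.5, 18.6 and 15.2 in KO. WT 1 lay at the level of the KO libraries, so the groups overlapped. The log2 fold change was -0.65 (SE 0.24, adjusted p = 0.177), with a 95% interval from -1.22 to -0.07. Without WT 1 Gli2 passed the threshold at -0.86 (adjusted p = 0.0303; 0.0303 to 0.479 over the fits that leave out 1 library), where 7.66% of all tested genes did. Gli3, mainly a repressor (chromosome 13 from 15463235 to 15730026, plus strand), was at 76.5, 61.6 and 74.4 CPM in WT against 61.0, 93.0 and 83.1 in KO. Its groups overlapped, with KO 1 the lowest of the 6 libraries, and the log2 fold change was 0.16 (SE 0.18, adjusted p = 0.663; 95% interval -0.26 to 0.58).

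Set beside each other per kilobase of annotated exon, Gli3 transcripts made up most of the GLI level in every library. The Gli3 share was 67.5%, 51.9% and 56.2% in WT and 68.4%, 76.3% and 77.6% in KO. The Gli1 share was 9.88%, 13.0% and 8.22% in WT and 2.56%, 2.36% and 2.58% in KO, a mean of 10.4% ± 2.43 against 2.5% ± 0.12. Gli2 held the remainder, 31.1% ± 7.37 in WT and 23.4% ± 4.95 in KO. Because the shares sum to the whole, a lower Gli1 share raises the others, and mRNA shares do not show how much GLI protein was processed to repressor.

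Ptch1 and Hhip, the other members that GLI factors are known to switch on, were not called, and their log2 fold changes had opposite signs. For these genes the sequence before the start site is given, since they are the GLI targets among the members that the RefSeq promoter table (GRCm38.p6) holds. It has windows for 7 of the 9 members, Gli1 and Boc not among them. Each line gives the 250 bases before the start site, 5′ to 3′ on the gene's strand, with capitals for CCACCC, the inner letters of the GLI motif GACCACCCA, on either strand.
Ptch1, chr13:63565736-63565985, minus strand: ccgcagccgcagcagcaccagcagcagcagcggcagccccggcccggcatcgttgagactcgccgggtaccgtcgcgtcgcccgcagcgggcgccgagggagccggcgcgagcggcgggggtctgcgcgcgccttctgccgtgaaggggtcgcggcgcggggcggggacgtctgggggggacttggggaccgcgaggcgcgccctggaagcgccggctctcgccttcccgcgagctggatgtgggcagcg
Hhip, chr8:80058009-80058258, minus strand: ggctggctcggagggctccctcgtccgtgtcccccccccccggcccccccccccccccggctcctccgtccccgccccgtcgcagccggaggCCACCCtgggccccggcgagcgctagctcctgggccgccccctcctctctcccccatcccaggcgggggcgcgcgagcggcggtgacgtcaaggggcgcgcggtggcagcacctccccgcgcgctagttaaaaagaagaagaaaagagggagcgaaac
The Ptch1 stretch lies before a RefSeq start site inside the GENCODE gene. Neither stretch overlaps a GENCODE exon of its strand from the members, the listed genes or Ppme1. Exons of other genes were not compared. The Hhip window held CCACCC once, with its first base 158 bases before the start site, and the Ptch1 window did not hold these letters. Across the 7 members with a window, 4 (Gli2, Gli3, Hhip and Smo) held CCACCC or its reverse complement GGGTGG in the full 300 bases, against 31.5% of all 32851 windows. None held the longer GACCACCCA or its reverse complement TGGGTGGTC, in which CCACCC is contained and which 0.253% of all windows hold. GC content of the upstream bases was 78.4% for Ptch1 and 76.0% for Hhip, above the median of 52.4% over all windows, and base composition bears on how often such letters occur.

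Ptch1, the receptor that holds SMO in check (ENSMUSG00000021466.12, chromosome 13 from 63508328 to 63573598, minus strand), was at 49.4, 54.1 and 60.2 CPM in WT against 30.2, 47.1 and 44.1 in KO. The groups did not overlap, but WT 1 and KO 2 were close, and KO 1 was the lowest. The mean was 54.6 ± 5.41 CPM in WT against 40.5 ± 9.01 in KO, a log2 fold change of -0.43 (SE 0.19, adjusted p = 0.237) with a 95% interval from -0.87 to 0.01. The upper end of the Gli1 interval, -1.6, lies below the lower end of the Ptch1 interval, though the difference between these genes was not tested. Without WT 1 and KO 1 Ptch1 was at -0.33 and passed the threshold (adjusted p = 0.00782; 0.00782 to 0.544 over all alternatives), in a setting where 48.0% of all 15449 tested genes did. Hhip, a membrane protein that binds Hedgehog ligands and limits their reach (chromosome 8 from 79965851 to 80058006, minus strand), was close to the limit of detection. It had 14, 18 and 7 reads in WT and 63, 22 and 24 in KO, or 0.388, 0.416 and 0.161 CPM against 1.63, 0.516 and 0.705 CPM. KO 1 held more Hhip reads than the other KO libraries together. The log2 fold change was 1.56 (SE 0.65, adjusted p = 0.224; 95% interval 0.00 to 3.11) and 0.92 without KO 1 (adjusted p = 0.436), so its direction was opposite to that of Gli1 but no change was shown.

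**Figure D2:**
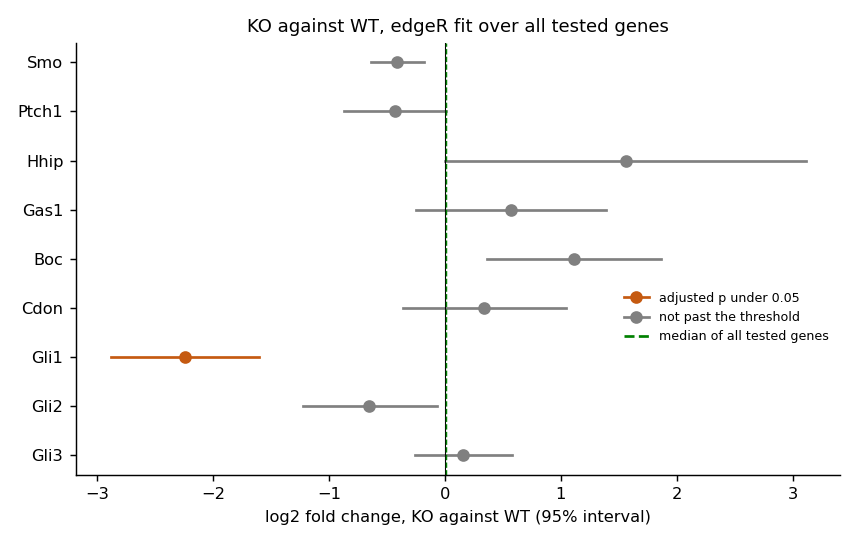
Log2 fold change of each gene, KO against WT (horizontal axis), with its 95% interval as a line; orange marks an adjusted p under 0.05 and the dashed line the median of all tested genes. Gli1 at -2.24 stands alone to the left, while Hhip at 1.56 and Boc at 1.11 have the largest positive values and wide intervals.

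Smo, the signal transducer (ENSMUSG00000001761.7, chromosome 6 from 29735503 to 29761365, plus strand), gave values close together within each group. It was at 230, 236 and 226 CPM in WT against 165, 173 and 183 in KO. All KO libraries lay below all WT libraries, at 173 ± 8.84 against 231 ± 5.10 CPM. The log2 fold change was -0.41 (SE 0.10; 95% interval -0.64 to -0.18), and the adjusted p of 0.0523 just missed the threshold. DESeq2 and limma-voom called Smo lower (adjusted p = 0.000126 and 0.0494; 0.000126 to 0.388 over all alternatives). DESeq2 called 15.8% of all tested genes and limma-voom 7.46%. Per kilobase Smo was the second most abundant member after Gas1, at 41.0 ± 0.908 CPM per kb in WT and 30.8 ± 1.57 in KO. A processed pseudogene, Gm13717, lies inside Smo on the same strand and had 3 to 50 counts per library, against 6217 to 10228 for Smo.

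The co-receptors Gas1, Boc and Cdon all had higher means in KO, but none passed the threshold, and each was lowest in WT 1 and highest in KO 1. Boc, an immunoglobulin-superfamily co-receptor (chromosome 16 from 44485049 to 44558897, minus strand), was at 4.13, 8.22 and 8.19 CPM in WT against 18.1, 14.5 and 11.7 in KO. Its groups did not overlap, and the mean went from 6.85 ± 2.35 to 14.8 ± 3.19 CPM (log2 fold change 1.11, SE 0.31, adjusted p = 0.0908; 95% interval 0.36 to 1.86). DESeq2 called it higher (adjusted p = 0.00901; 0.00533 to 0.38 over all alternatives). Cdon, its close relative (chromosome 9 from 35421128 to 35507652, plus strand), was at 53.1, 90.8 and 96.3 CPM in WT against 138, 87.0 and 79.3 in KO. WT 1 was the lowest and KO 1 the highest library, and among the other 4 both WT values lay above both KO values. The log2 fold change of 0.34 (SE 0.29, adjusted p = 0.561) became -0.17 without both of these libraries (adjusted p = 0.0721; 0.0721 to 0.921 over all alternatives), so the sign of Cdon rested on them.

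Gas1, a membrane-anchored co-receptor first known from growth-arrested fibroblasts (chromosome 13 from 60174405 to 60177365, minus strand), was at 104, 266 and 248 CPM in WT against 366, 262 and 289 in KO. WT 1 was 2.46-fold below the mean of the other WT libraries, and without it the groups would still overlap. The log2 fold change was 0.57 (SE 0.35, adjusted p = 0.398), and 0.10 without WT 1 and KO 1. A noncoding gene, Gm48488, overlaps Gas1 on the opposite strand with 106 to 286 counts per library, against 3755 to 14149 for Gas1. Whether the counting used strand is not given in the sources used here, so reads from the overlap cannot be told apart.

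**Figure D3:**
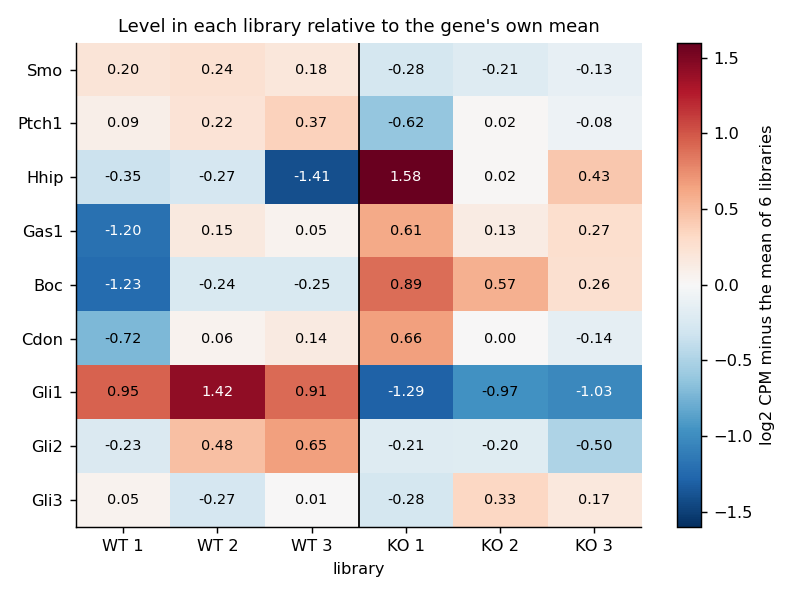
Log2 CPM of each gene in each library minus the mean of that gene over the 6 libraries (colour and printed value), with genes in rows and libraries in columns. Gli1 runs from 0.91 to 1.42 in WT and from -1.29 to -0.97 in KO, while Gas1, Boc and Cdon have their lowest value in WT 1 (-1.2, -1.23 and -0.72) and their highest in KO 1 (0.61, 0.89 and 0.66).

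The gap between library 1 and the other 2 of a group thus differed between members. In WT, libraries 2 and 3 were 1.30, 0.98, 0.82 and 0.79 above WT 1 on the log2 scale for Gas1, Boc, Cdon and Gli2, and 0.21, 0.21 and 0.01 above it for Gli1, Ptch1 and Smo. For Hhip and Gli3 they were 0.48 and 0.18 below WT 1. In KO, libraries 2 and 3 were 0.41, 0.47 and 0.73 below KO 1 for Gas1, Boc and Cdon, 1.36 below it for Hhip and 0.14 below it for Gli2. They were 0.59, 0.53, 0.29 and 0.11 above KO 1 for Ptch1, Gli3, Gli1 and Smo. Without WT 1 and KO 1, 6 of 9 members passed the threshold, Gli1, Gli2, Ptch1 and Smo lower and Gli3 and Boc higher, where 48.0% of all tested genes passed. That setting compares 2 libraries with 2.

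**Figure D4:**
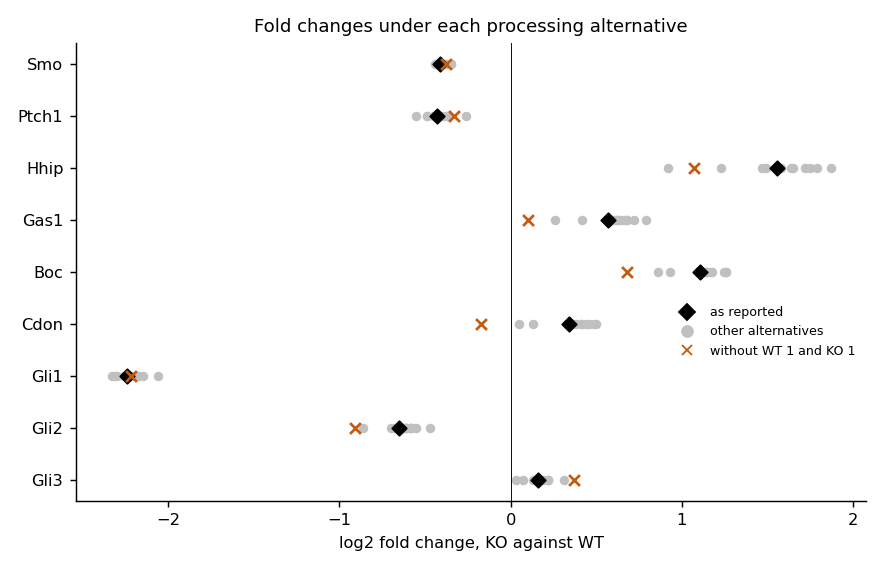
Log2 fold change of each gene (horizontal axis) as reported (black diamonds), without WT 1 and KO 1 (orange crosses) and under the other processing alternatives (grey points). Gli1 stays between -2.33 and -2.06 in every fit that tested it, while Cdon goes from 0.34 to -0.17 without both libraries numbered 1.

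In order of level per kilobase of exon, a measure that allows genes to be set beside each other, WT cells held Gas1 (69.5 ± 29.9 CPM per kb) and Smo (41.0 ± 0.908) above Cdon (10.4 ± 3.05), Gli3 (7.38 ± 0.841), Gli2 (3.98 ± 1.17), Ptch1 (3.85 ± 0.381), Boc (1.54 ± 0.529), Gli1 (1.30 ± 0.265) and Hhip (0.0354 ± 0.0154). Ranges overlapped between Gas1 and Smo, Cdon and Gli3, Gli2 and Ptch1, and Boc and Gli1, so those neighbours did not differ beyond their spread in WT. In KO cells the order began the same way, with Gas1 at 103 ± 18.2, Smo at 30.8 ± 1.57, Cdon at 13.1 ± 4.13 and Gli3 at 8.24 ± 1.71 CPM per kb. Boc (3.32 ± 0.716) then stood above Ptch1 (2.86 ± 0.635) and Gli2 (2.54 ± 0.286), with overlapping ranges from one to the next, and Gli1 (0.276 ± 0.033) and Hhip (0.105 ± 0.0657) came last. With the length of the longest transcript in place of all exons, Gli1 ranked 7 and Boc 8 in WT, and Ptch1 ranked above Gli2 in WT and above Boc in KO. Gene lengths differ between annotations, so this order depends on the models used.

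The ligands themselves were not detected or at the limit of detection. Shh had 0 counts in all 6 libraries. Ihh had 6 and 8 counts in WT 1 and WT 3 and 0 elsewhere. Dhh had 0 counts in each WT library and 18, 4 and 9 in KO, at most 0.466 CPM. None of the 3 ligand genes was tested, and a count of 0 allows up to 3 counts, which is 0.0689 to 0.0881 CPM. Of the 9 genes for ligands and their release 3 were tested and none was called by edgeR (0 called, and 0 with an unadjusted p below 0.05), among them Disp1, which releases the lipid-modified ligands from cells, at 31.0 ± 2.02 and 29.5 ± 1.53 CPM.

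The wider pathway was read from 6 lists with 106 tested genes, of which 9 were lower and 2 higher in KO, 10.4% in all beside 7.40% of all tested genes, with a median log2 fold change of -0.09 against 0.01. When 1 library was left out the count ranged from 2 to 12, with 3 without WT 2, 3 without WT 3, 7 without KO 1, 2 without KO 2 and 3 without KO 3. The calls over all tested genes in these fits were, in that order, 385 of 15574, 332 of 15605, 1105 of 15630, 375 of 15532 and 359 of 15826. The list counts thus fell where calls fell over all genes. Of 6 tested receptors and ligand-binding proteins beside the members, 2 fell and 0 rose, where 3.86% of all tested genes were lower. Gpc4 and Gpc6 encode glypicans, heparan sulfate proteoglycans of the cell surface that bind growth factors and morphogens. Gpc4, on chromosome X, was at 103, 113 and 135 CPM in WT against 46.3, 49.8 and 46.9 in KO (log2 fold change -1.29, SE 0.13, adjusted p = 0.00282). Gpc6 was at 6.66, 7.28 and 6.17 CPM in WT against 2.61, 2.79 and 2.94 in KO (log2 fold change -1.27, SE 0.21, adjusted p = 0.0169), and its call was lost without WT 2, WT 3, KO 2 or KO 3 (adjusted p = 0.0718 to 0.0913). Both genes separated the groups widely.

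Of 12 tested genes acting next to SMO, 2 fell and 0 rose, where 3.86% of all tested genes were lower. Efcab7, which helps tether the EVC proteins at the base of the cilium, was at 7.93, 7.55 and 9.09 CPM in WT against 4.24, 3.17 and 4.49 in KO (log2 fold change -1.05, SE 0.23, adjusted p = 0.0398). Leaving out any one of the 6 libraries ended that call (adjusted p = 0.0567 to 0.166). Csnk1g1, a casein kinase gene, was at 126, 110 and 122 CPM in WT against 56.9, 68.4 and 58.5 in KO (log2 fold change -0.96, SE 0.12, adjusted p = 0.00553). It lies on chromosome 9 from 65908924 to 66045015, in a stretch between 55 and 75 Mb, known from earlier results of these data, where 39.9% of 178 tested genes were lower. The EVC genes Evc and Evc2 were at 61.0 ± 12.8 and 62.6 ± 4.24 CPM in WT against 53.1 ± 7.54 and 60.4 ± 3.29 in KO.

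Of 21 genes that process or restrain GLI proteins, 3 fell and 0 rose, where 3.86% of all tested genes were lower. Dyrk2 went from 56.7 ± 5.96 to 32.9 ± 1.72 CPM (log2 fold change -0.78, SE 0.12, adjusted p = 0.0132), Prkaca, the catalytic subunit of protein kinase A, from 306 ± 28.1 to 206 ± 1.69 CPM (-0.57, SE 0.11, adjusted p = 0.0275), and Gsk3b from 168 ± 8.42 to 114 ± 14.1 CPM (-0.56, SE 0.12, adjusted p = 0.0422). Each call depended on single libraries. Dyrk2 lost it without WT 3, KO 2 or KO 3 (adjusted p = 0.0634 to 0.0743), Prkaca without WT 2, WT 3, KO 2 or KO 3 (0.117 to 0.126) and Gsk3b whichever of the 6 libraries was left out (0.0556 to 0.165). Protein kinase A and GSK3 are known to mark GLI proteins for processing, and of the other genes for these kinases Prkacb and Gsk3a had log2 fold changes of -0.16 (adjusted p = 0.453) and -0.13 (adjusted p = 0.607). Sufu, which binds GLI proteins in the cytoplasm, was at 50.3 ± 1.67 and 53.9 ± 3.71 CPM (log2 fold change 0.10, SE 0.10, adjusted p = 0.634), and Kif7, the ciliary kinesin of the pathway, at 10.5 ± 0.15 and 13.1 ± 1.2 CPM (0.32, SE 0.15, adjusted p = 0.28).

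Of 20 tested genes reported elsewhere as GLI targets, 2 fell and 0 rose, with a median log2 fold change of 0.05. The share called was 10.0%, near the 7.40% of all tested genes, of which 3.86% were lower. Bmp4, a secreted growth factor, was at 27.5, 25.9 and 24.1 CPM in WT against 12.1, 11.2 and 15.9 in KO (log2 fold change -0.98, SE 0.17, adjusted p = 0.0199), and its call was lost without WT 2, WT 3 or KO 2 (adjusted p = 0.076 to 0.0852). Nr2f2, a nuclear receptor, was at 93.8, 134 and 141 CPM in WT against 53.7, 67.8 and 66.1 in KO (-0.97, SE 0.18, adjusted p = 0.0264), and kept its call only without WT 1 among the fits that leave out 1 library (0.0502 to 0.109 in the others). Foxf1 and Foxf2, forkhead genes of mesenchyme, had log2 fold changes of 1.51 (SE 0.45, adjusted p = 0.105) and 0.43 (SE 0.18, adjusted p = 0.22). Targets of this kind answer to many other signals, and which of them respond to GLI factors in these cells was not measured.

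Of 45 genes of the primary cilium, all of them tested, 2 rose and 0 fell, with a median log2 fold change of -0.07. The share called was 4.44%, below the 7.40% of all tested genes, of which 3.55% were higher. Dync2h1, the heavy chain of the motor that returns cargo from the ciliary tip, was at 8.93, 9.17 and 14.2 CPM in WT against 28.5, 27.9 and 20.1 in KO (log2 fold change 1.25, SE 0.24, adjusted p = 0.0291). Cc2d2a, a component of the transition zone at the base of the cilium, was at 13.3, 15.5 and 16.0 CPM in WT against 31.7, 23.1 and 24.1 in KO (0.82, SE 0.17, adjusted p = 0.0366). Dync2h1 kept its call only without WT 3 (0.0574 to 0.121 when one of the others was left out), and Cc2d2a lost it whichever library was left out (0.0537 to 0.13). Ift88, without which cilia do not form, was at 11.1 ± 2.54 and 14.1 ± 1.77 CPM, and Kif3a, a subunit of the motor that builds the cilium, at 40.0 ± 5.23 and 41.1 ± 1.25 CPM.

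**Figure D5:**
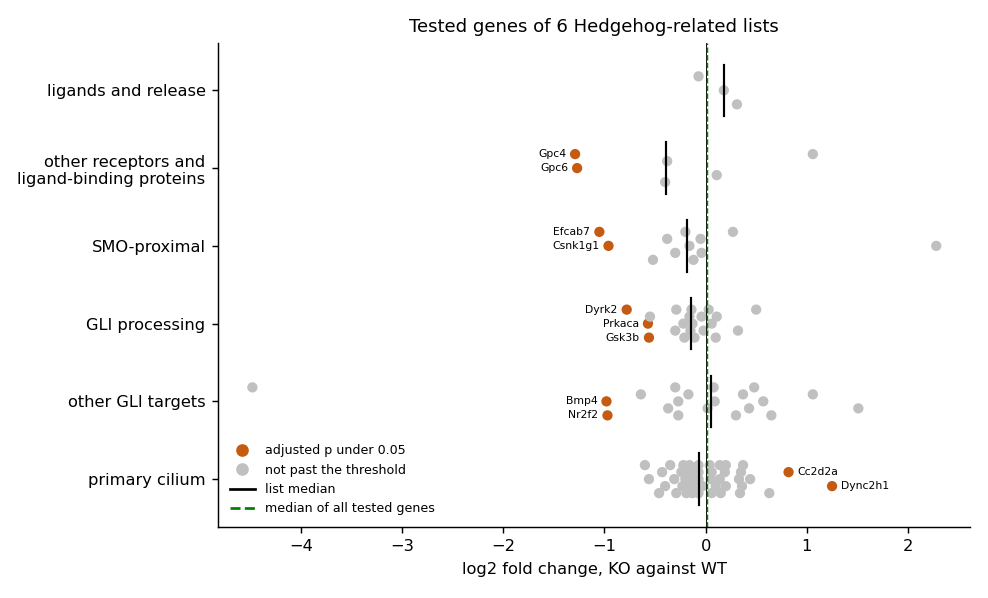
Log2 fold change, KO against WT (horizontal axis), of the tested genes in the 6 lists, 1 point per gene; orange marks an adjusted p under 0.05, black lines list medians and the dashed line the median of all tested genes. The 9 named falls lie between -1.29 and -0.56, the 2 named rises are Dync2h1 at 1.25 and Cc2d2a at 0.82, and all list medians lie between -0.39 and 0.18.

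The genes whose pattern over the 6 libraries was most like that of Gli1 were sought among the 10762 genes whose mean reached 5 CPM, by the root mean square difference of centred log2 CPM. They were Gcnt1 (0.0656), Sema7a (0.168), Lhx6 (0.183), Lhx9 (0.20) and Prtg (0.216). Gcnt1, a glycosyltransferase gene, was at 15.9, 19.6 and 15.6 CPM in WT against 3.31, 3.96 and 3.67 in KO, a log2 fold change of -2.22 (adjusted p = 0.00159). Sema7a and Prtg start at 57.9 and 72.8 Mb of chromosome 9, within the stretch of lower genes named above. The closest to Ptch1 were Zfp267 (0.0283), Ints4 (0.0706), Six4 (0.0707), Tmed8 (0.0757) and Ctnnal1 (0.078), and these 5 had log2 fold changes between -0.54 and -0.32, with none called. With 6 libraries in 2 groups any gene with the same group difference comes out as alike, so the values are a description.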

How the data were processed

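RNA was sequenced in 6 libraries made with a directional kit, per the labels' protocols. The authors deposited raw read counts per gene symbol, 1 file per library, with 53762 rows and none for unassigned reads. Per the submitters' processing notes, Trim Galore 0.6.6 and HISAT2 2.2.1 were among the tools. Which program counted the reads, with which strand setting and gene models, is not given in the sources used here. A human build, hg38, stands in those notes although the symbols are mouse symbols, so positions and exon lengths were taken by symbol from GENCODE M21 (GRCm38), which holds 92.9% of them. Groups come from the sample titles. No libraries were identical (chi-square per degree of freedom 12.73 to 136.83 between replicates).

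The main test was edgeR 4.0.16 under R 4.3.3 (filterByExpr, TMM, robust quasi-likelihood fit). All 9 members passed the filter. Hhip had 14 and 18 reads in WT 1 and WT 2 and 22 to 63 in KO. With 7 reads in WT 3, it would not have passed on the WT libraries alone. The same held for Krt8 (9, 8 and 11 reads in WT), Tek (10, 6 and 7), Foxf1 (9, 17 and 18) and Gprasp2 (7, 16 and 18). Counting floors cover counting error only. Intervals of fold changes are unadjusted. CPM per kb divides by the union of annotated exons. Alternatives were DESeq2 1.42.0, limma-voom (limma 3.58.1), other scaling, other filters, a replicate block, leaving out single libraries, and WT 1 and KO 1 left out together. Named genes are the 9 members, called list genes whose mean reached 1 CPM (at most 6 per list), Ppme1, and the 5 genes most like Gli1 and like Ptch1; other genes were chosen after their values were seen. The members, lists and alternatives were chosen with earlier results of these data known.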

Additional observations from a re-analysis of the deposited data

How the results depend on the processing

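DESeq2 called 2406 genes in all, 3 members and 21 list genes, against 1127, 1 and 11 in edgeR. Without WT 1 and KO 1 together the counts were 7408, 6 and 61. Limma-voom called 2 members (Gli1 and Smo), and 0 passed at a mean of at least 5 CPM, a filter that leaves Gli1 and Hhip untested. Leaving out 1 library gave 332 to 1216 genes in all, 1 to 2 members and 2 to 12 list genes. The 4 lowest totals, 385, 332, 375 and 359, came without WT 2, WT 3, KO 2 and KO 3, and the cause was not tested. Of 133 values of members under the alternatives, 122 kept direction and side of the threshold, 9 were called where the reported value was not, 1 lost its call (Gli1 with the replicate block) and 1 changed sign, Cdon at -0.171 without WT 1 and KO 1. Of 164 values of named list genes 107 kept both and 57 lost the call. Scaling by library size alone or upper quartiles shifted the median of all genes by 0.065 and 0.068 and gave 588 higher and 442 lower, and 606 and 471, against 540 and 587.

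Deviations of same-numbered WT and KO libraries from their group means correlated at -0.512, -0.307 and -0.223, and no library correlated best with its own number. With n = 3 per group these values cannot show whether same-numbered libraries share a culture or batch. With the replicate number as a block 8 genes, 0 members and 0 list genes passed, and Gli1 stood at -2.228 (adjusted p = 0.109) and Ppme1 at an adjusted p of 0.0518. Depth limits Hhip and the ligand genes, which had 0 to 63 reads per library.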

Other observations

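Bmp2, a growth factor gene in the list of reported GLI targets, had 150, 544 and 405 reads in WT and 38, 7 and 0 in KO, or 8.67 ± 4.24 against 0.382 ± 0.527 CPM. It was not called (edgeR adjusted p = 0.0634), and it was picked out after its values were seen. Gprasp2, a gene acting next to SMO, had 7, 16 and 18 reads in WT and 132, 22 and 30 in KO, most of the KO reads coming from KO 1 (edgeR adjusted p = 0.155).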
